A study of Mus musculus with 30 samples.

Results

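The genes of the constitutive proteasome were followed in luminal and basal cells sorted from mammary glands (MGs) of virgin and parous mice. They were taken from the table by their symbols, as all Psma, Psmb, Psmc and Psmd genes with a number, the activators Psme3 and Psme4, the inhibitor Psmf1 and the assembly chaperones Psmg1 to Psmg4, without the inducible subunits Psmb8, Psmb9 and Psmb10. This gave 42 of the 11137 genes in the table. The 42 genes comprised 7 of the 20S alpha ring, 7 of the 20S beta ring, 6 ATPases and 11 non-ATPase subunits of the 19S particle, 3 chaperones of the 19S base, 4 chaperones of 20S assembly, and Psme3, Psme4 and Psmf1. The remaining gene, Psme3ip1, encodes a protein that binds the Psme3 product and is no subunit, and it matched by its symbol alone. Psma8 and Psmb11 were not in the table and are not analysed here.

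The proteasome is the protease that degrades ubiquitin-tagged proteins in every nucleated cell. Its 20S core is a stack of alpha and beta rings, in which Psmb5, Psmb6 and Psmb7 carry the catalytic sites, and its 19S cap recognises, unfolds and feeds in the substrate with a ring of ATPases (Psmc genes) and a lid and base of non-ATPase subunits (Psmd genes). Dedicated chaperones build both parts, and when proteasome activity falls the transcription factor Nfe2l1 raises subunit transcription through antioxidant response elements.

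Libraries were made by 3′ mRNA sequencing with unique molecular identifiers, 1 library per sorted lineage and mouse. K8imTmG mice (labelled K8rta:TETO CRE:mTmG) carried a Cre recombinase that doxycycline switches on through the Krt8 promoter, and the mTmG reporter that turns recombined cells green. K8iΔRank mice (labelled K8rta:TETO CRE:RANK fl/fl:mTmG) carried in addition floxed Rank alleles, so that Rank was targeted in luminal cells and left in basal cells. All mice received 1 mg/ml doxycycline in drinking water, from week 3 to week 8 of age according to the labels, whereas the methods of the study begin at a later week. The labels give no age at collection, and the methods describe age-matched virgin and parous mice, the parous ones taken after involution. Luminal libraries came from 3 virgin K8imTmG, 3 virgin K8iΔRank, 5 parous K8imTmG and 4 parous K8iΔRank mice. Basal libraries came from 3 virgin K8imTmG, 4 virgin K8iΔRank, 4 parous K8imTmG and 4 parous K8iΔRank mice. Of the 17 mice, 13 gave both lineages.

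The libraries held 340445 to 3130419 recovered reads (median 1853588), and 1 read was worth between 0.381 and 5.43 normalized counts. The summed normalized count of 5 luminal markers was 3320 to 9872 in luminal and 522 to 1431 in basal libraries, and that of 5 basal markers 23.1 to 183 in luminal and 6070 to 10590 in basal libraries. Of other cell types, 4 endothelial markers summed to 3.36 to 37.8 in luminal and 43.8 to 683 in basal libraries, 4 fibroblast markers to 79.4 to 949 and 458 to 814, and Cd74, the 1 of 5 leucocyte markers in the table, was at 0 to 9.93 and 12.5 to 55.4. Rank (Tnfrsf11a) gave 9.57 to 64.9 normalized counts in luminal K8imTmG and 11.5 to 41.1 in luminal K8iΔRank libraries. Reads at the 3′ end do not check the removal of internal exons. The study reported reduced Rank mRNA by qPCR in sorted green (GFP+) luminal cells of K8iΔRank mice. It also sorted the luminal cells for these libraries as GFP+. The libraries also parted by the lectin gene Clec2d, at 65.6 to 199 normalized counts in 14 libraries and 0.641 to 8.68 in 16, called here Clec2d-high and Clec2d-low. The median depth was 878946.5 reads on the high side and 2478110 on the low side. All basal K8imTmG libraries and all virgin luminal K8iΔRank libraries were Clec2d-high. All virgin luminal K8imTmG, parous luminal K8iΔRank and virgin basal K8iΔRank libraries were Clec2d-low. Both sides occurred among parous luminal K8imTmG libraries (mice 494 and 557 high, 532, 534 and 558 low) and among parous basal K8iΔRank libraries (mice 794k and 830k high, 787k and 798k low). The genotype comparisons in virgin mice and the parity comparison of K8iΔRank luminal cells therefore cannot be told apart from this split. RNA integrity is given in the labels only as a range over the series, and its part was not tested.

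Promoter sequence is shown because antioxidant response elements are the best-known shared feature of proteasome promoters. RefSeq windows on GRCm38.p6, from 250 bases before to 50 after the gene start, were matched by symbol for 35 of the 42 genes, and the first window was used for the 3 genes with several. Both strands were searched. The element TGANNNNGC was found in 18 of the 35 windows (51.4%) and in 42.8% of 8668 windows of genes in the table. The CCAAT box, CCAAT, was found in 12 of 35 (34.3%, against 38.5%) and the GC box, GGGCGG, in 20 of 35 (57.1%, against 67.5%). Of 23 matches to the element in the 35 windows, 4 overlapped a GC box and 0 a CCAAT box. In 6 genes a match lay wholly within the 60 bases before the gene start. These windows of 27 bases are given 5′ to 3′ on the strand of the gene, with the 9 bases of the match in capitals.

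Psmb3, chr11:97703415-97703441, plus strand: cgttgacccTGAGAAAGCcagagccgg
Psmb5, chr14:54618025-54618051, minus strand: gtgaagttgTGACGTCGCggcgttgcc
Psmb6, chr11:70525339-70525365, plus strand: taaagagagTGACGGAGCgctttacga
Psmd12, chr11:107479491-107479517, plus strand: ctgagtggaTGAGCGGGCgacttccgg
Psmd9, chr5:123228150-123228176, plus strand: tctagccggTGACCCCGCccacttcca
Psmg4, chr13:34162928-34162954, plus strand: ctaggccccGCCCACTCAtgctcgccc

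The match in Psmg4 lies on the opposite strand and is therefore printed as its reverse complement. A match is a description of letters and not of a bound site.

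The summed level of the 42 genes, which overlapped between the lineages, was 6207 to 8204 normalized counts in basal and 7057 to 9204 in luminal libraries. As a percentage of recovered reads it was 0.639 to 0.674 in virgin luminal K8imTmG and 0.517 to 0.598 in K8iΔRank libraries. In virgin basal libraries it was 0.359 to 0.394 and 0.451 to 0.529. The virgin genotypes, on opposite Clec2d sides, thus did not overlap on this scale, whereas their summed normalized counts did. The parous genotypes overlapped on both scales. The mean of log2(normalized count + 1) over the 42 genes ranged from 6.34 to 7.17 in basal and from 6.89 to 7.23 in luminal libraries. Inside the list genes of the same ring or cap moved in opposite directions between libraries. Across the Clec2d split 22 genes were higher and 20 lower on the high side, with log2 differences from -1.29 for Psmc1 to 1.74 for Psma5. The difference exceeded 0.5 in either direction for 25 of 42 genes (59.5%), against 49.1% of all 11137 genes. These differences are given as a description, since the sides were defined from the data.

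**Figure D1:**
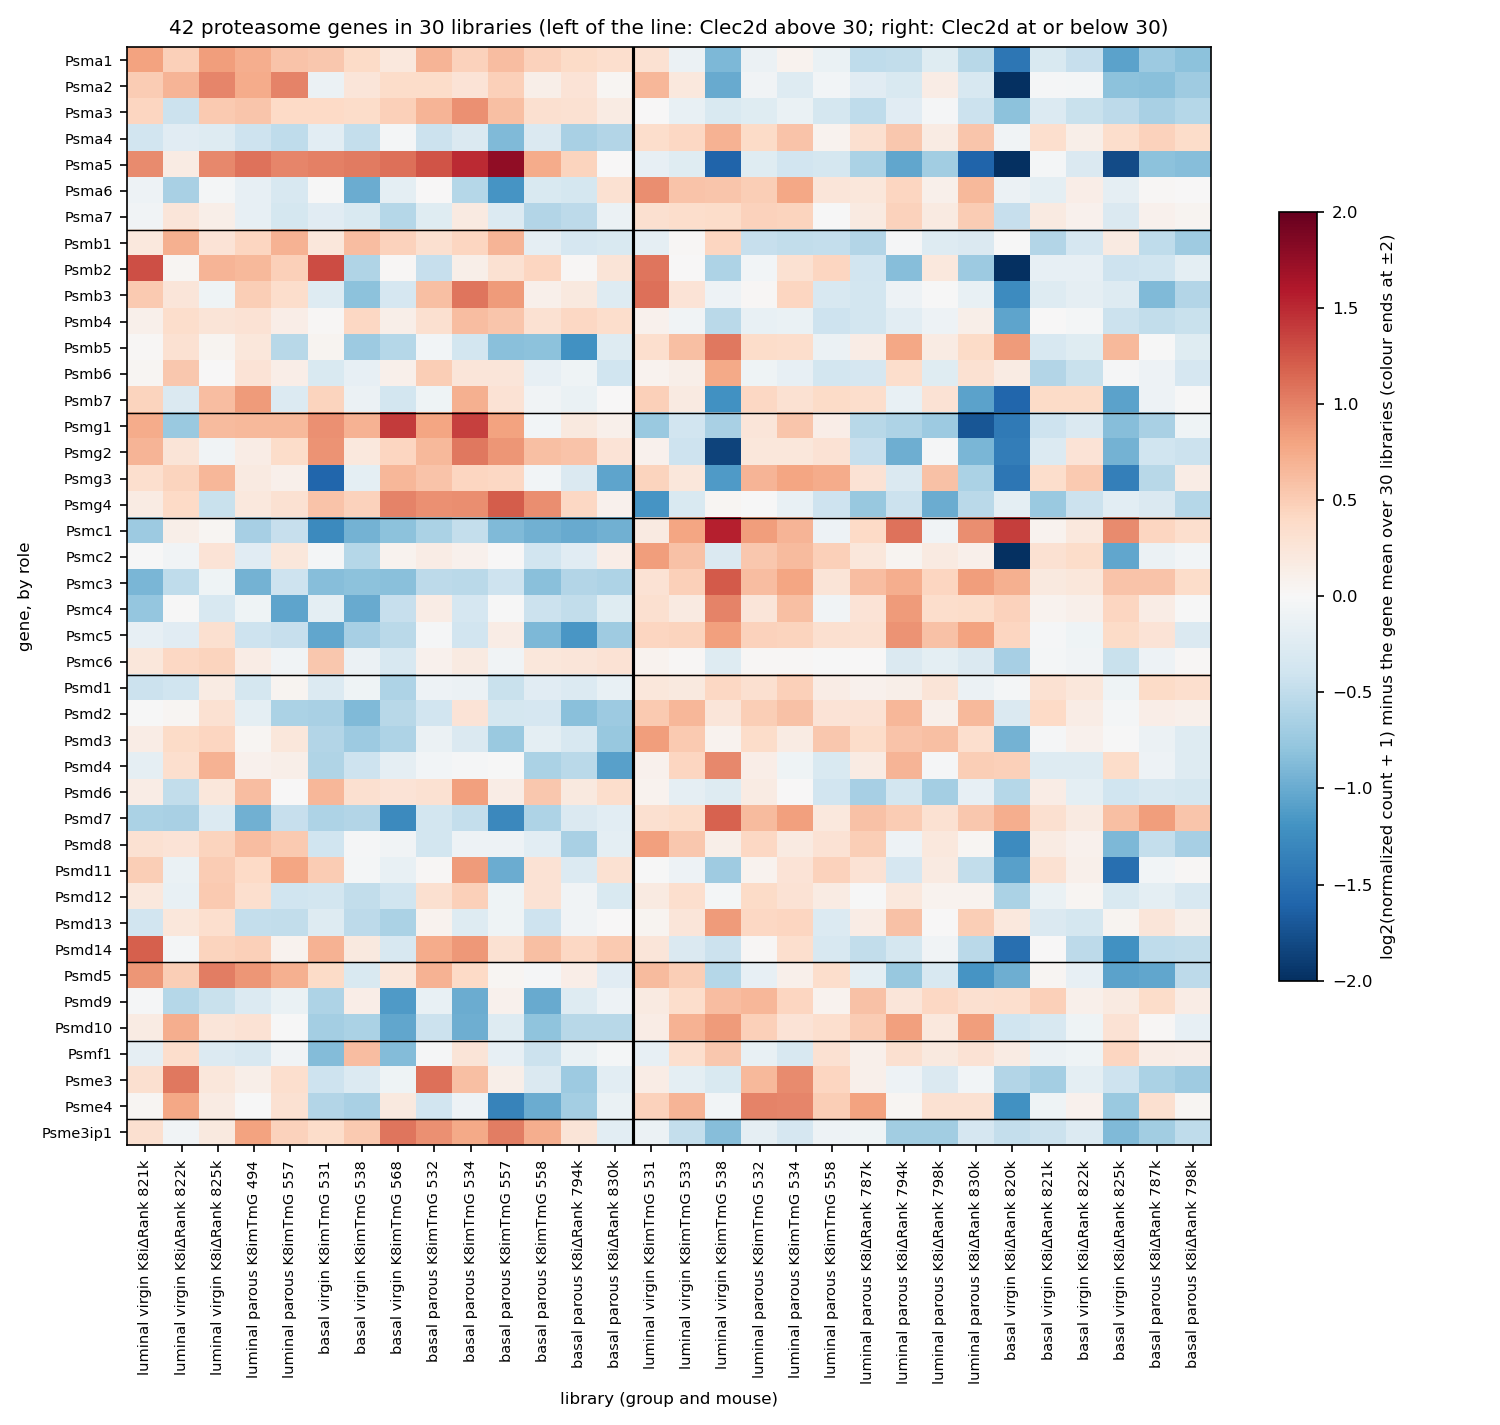
Levels of the 42 proteasome genes (vertical axis, by role, with lines between roles) in 30 libraries (horizontal axis, by group and mouse), as log2(normalized count + 1) minus the mean of the gene over all libraries. Left of the vertical line are the 14 Clec2d-high and right of it the 16 Clec2d-low libraries. Psma5 is red in the left and blue in the right block, and Psmc3 and Psmd7 show the reverse.

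Psma5, a subunit of the 20S alpha ring (chromosome 3, 108164086 to 108187298, GRCm39), had the largest mean log2 difference of the 42 genes across the split. It was at 96.7 to 330 normalized counts in the 14 high and 19.6 to 93.6 in the 16 low libraries, with no overlap. Psmc3, an ATPase of the 19S base (chromosome 2, 90884354 to 90896714), was at 121 to 222 in the high and 268 to 553 in the low libraries. Psmd7, the catalytically inactive partner of the deubiquitinase Psmd14 in the lid (chromosome 8, 108307010 to 108315121), was at 91.6 to 194.5 and 255 to 510. These 3 of 42 genes (7.14%) separated the 2 sides without overlap, as did 2.20% of all genes in the table. The ATPase Psmc1 overlapped slightly, with 115 to 306 in the high and 262 to 825 in the low libraries. The ratio of Psmc1 to Psma5 counts, used only to compare libraries, was 0.458 to 2.84 on the high side and 3.15 to 37.5 on the low side. These 2 genes had the extreme differences across this split, so a separation by their ratio follows from the choice of genes.

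The 2 conditions that held libraries of both sides are given next. Their libraries are among those in which Psma5 and Psmc1 were picked, so their values describe the split and do not test it. In parous luminal K8imTmG cells Psma5 was at 203 and 188 in the 2 high libraries (mice 494 and 557) and at 80.4, 73.2 and 74.4 in the 3 low ones (mice 532, 534 and 558). In parous basal K8iΔRank cells it was at 131 and 96.7 in the high (794k and 830k) and 54.1 and 52.4 in the low libraries (787k and 798k). Psmc1 went the other way, from 176 and 204 to 500, 447 and 262 in the luminal condition and from 139 and 144 to 380 and 356 in the basal one. The 2 conditions share no library and no mouse. Over the 42 genes the high-minus-low log2 differences in the 2 conditions had a Pearson r of 0.849 and a Spearman rho of 0.847, against 0.532 and 0.532 over all 11137 genes, with 37 of 42 genes (88.1%) and 70.2% of all genes on the same side of 0. These are correlations across genes, which are not independent and are measured in the same libraries. In both conditions 23 of the 42 genes (54.8%) did not overlap between sides in the same direction, 11 higher on the high and 12 higher on the low side, as did 30.3% of all genes. Higher on the high side were the alpha subunits Psma1, Psma2, Psma3 and Psma5, the beta subunits Psmb1, Psmb2 and Psmb4, the chaperones Psmd5, Psmg1 and Psmg4, and Psme3ip1. Higher on the low side were Psma4, Psma7, the ATPases Psmc1, Psmc3, Psmc4 and Psmc5, the non-ATPase subunits Psmd1, Psmd2, Psmd7 and Psmd13, the chaperone Psmd9 and the activator Psme4.

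**Figure D2:**
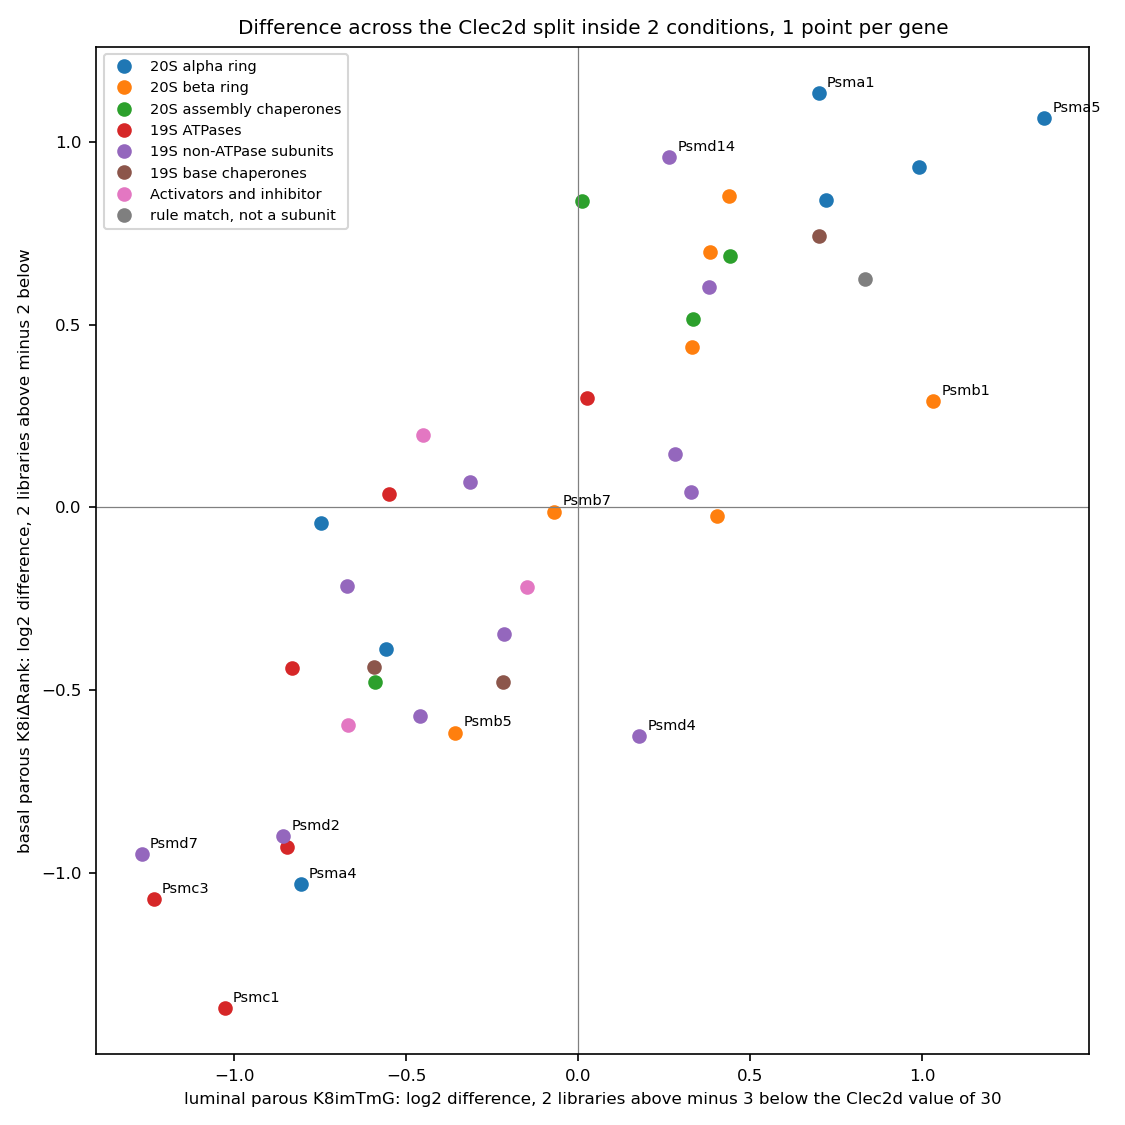
Difference between Clec2d-high and Clec2d-low libraries for the 42 genes, 1 point per gene coloured by role. The horizontal axis gives the log2 difference in parous luminal K8imTmG cells (2 against 3 libraries) and the vertical axis that in parous basal K8iΔRank cells (2 against 2 libraries). Points lie along the diagonal, from Psmc1, Psmc3 and Psmd7 at the lower left to Psma1 and Psma5 at the upper right.

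The catalytic subunits were compared first between the lineages. Psmb5, which carries the chymotrypsin-like site, was at 226, 272 and 373 normalized counts in virgin luminal K8imTmG, 182, 221 and 186 in virgin luminal K8iΔRank, 210, 230, 228, 121 and 164 in parous luminal K8imTmG and 197, 308, 200 and 235 in parous luminal K8iΔRank libraries. In basal cells it was at 185, 107 and 120 in virgin K8imTmG, 323, 143, 152 and 281 in virgin K8iΔRank, 172, 139, 99.5 and 101 in parous K8imTmG and 179, 76.5, 152 and 150 in parous K8iΔRank libraries. The luminal libraries were mostly above the basal ones, with overlap, and the basal virgin libraries of mice 820k and 825k were as high as luminal ones. The log2 difference between luminal and basal cells over all 30 libraries was 0.58 (standard error 0.15, limma adjusted p = 0.00147).

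Psmb6, with the caspase-like site, was at 349, 358 and 559 in virgin luminal K8imTmG, 341, 479 and 333 in virgin luminal K8iΔRank, 398, 313, 295, 361 and 255 in parous luminal K8imTmG and 262, 421, 280 and 408 in parous luminal K8iΔRank libraries. In basal cells it was at 269, 294 and 353 in virgin K8imTmG, 369, 221, 242 and 325 in virgin K8iΔRank, 465, 393, 390 and 294 in parous K8imTmG and 308, 311, 261 and 250 in parous K8iΔRank libraries. The lineages overlapped over most of their range, and the log2 difference was 0.22 (standard error 0.11, limma adjusted p = 0.0962). Psmb7, with the trypsin-like site, was at 119, 96.5 and 36.1 in virgin luminal K8imTmG, 116, 69.2 and 131 in virgin luminal K8iΔRank, 155, 113, 105, 70.3 and 111 in parous luminal K8imTmG and 108, 76.6, 104 and 39.7 in parous luminal K8iΔRank libraries. In basal cells it was at 116, 78.5 and 65.2 in virgin K8imTmG, 27.7, 111, 110 and 39.7 in virgin K8iΔRank, 79.5, 139, 104 and 80.8 in parous K8imTmG and 79.4, 77.3, 84.5 and 85.4 in parous K8iΔRank libraries. The lineages overlapped (log2 difference 0.15, standard error 0.21, limma adjusted p = 0.557). The 4 lowest Psmb7 values were those of 4 Clec2d-low libraries, basal 820k and 825k and luminal 538 and 830k. Psmb5, Psmb6 and Psmb7 passed the test in none of the 8 comparisons of genotype or stage within a lineage, where their limma adjusted p-values were 0.208 or higher.

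**Figure D3:**
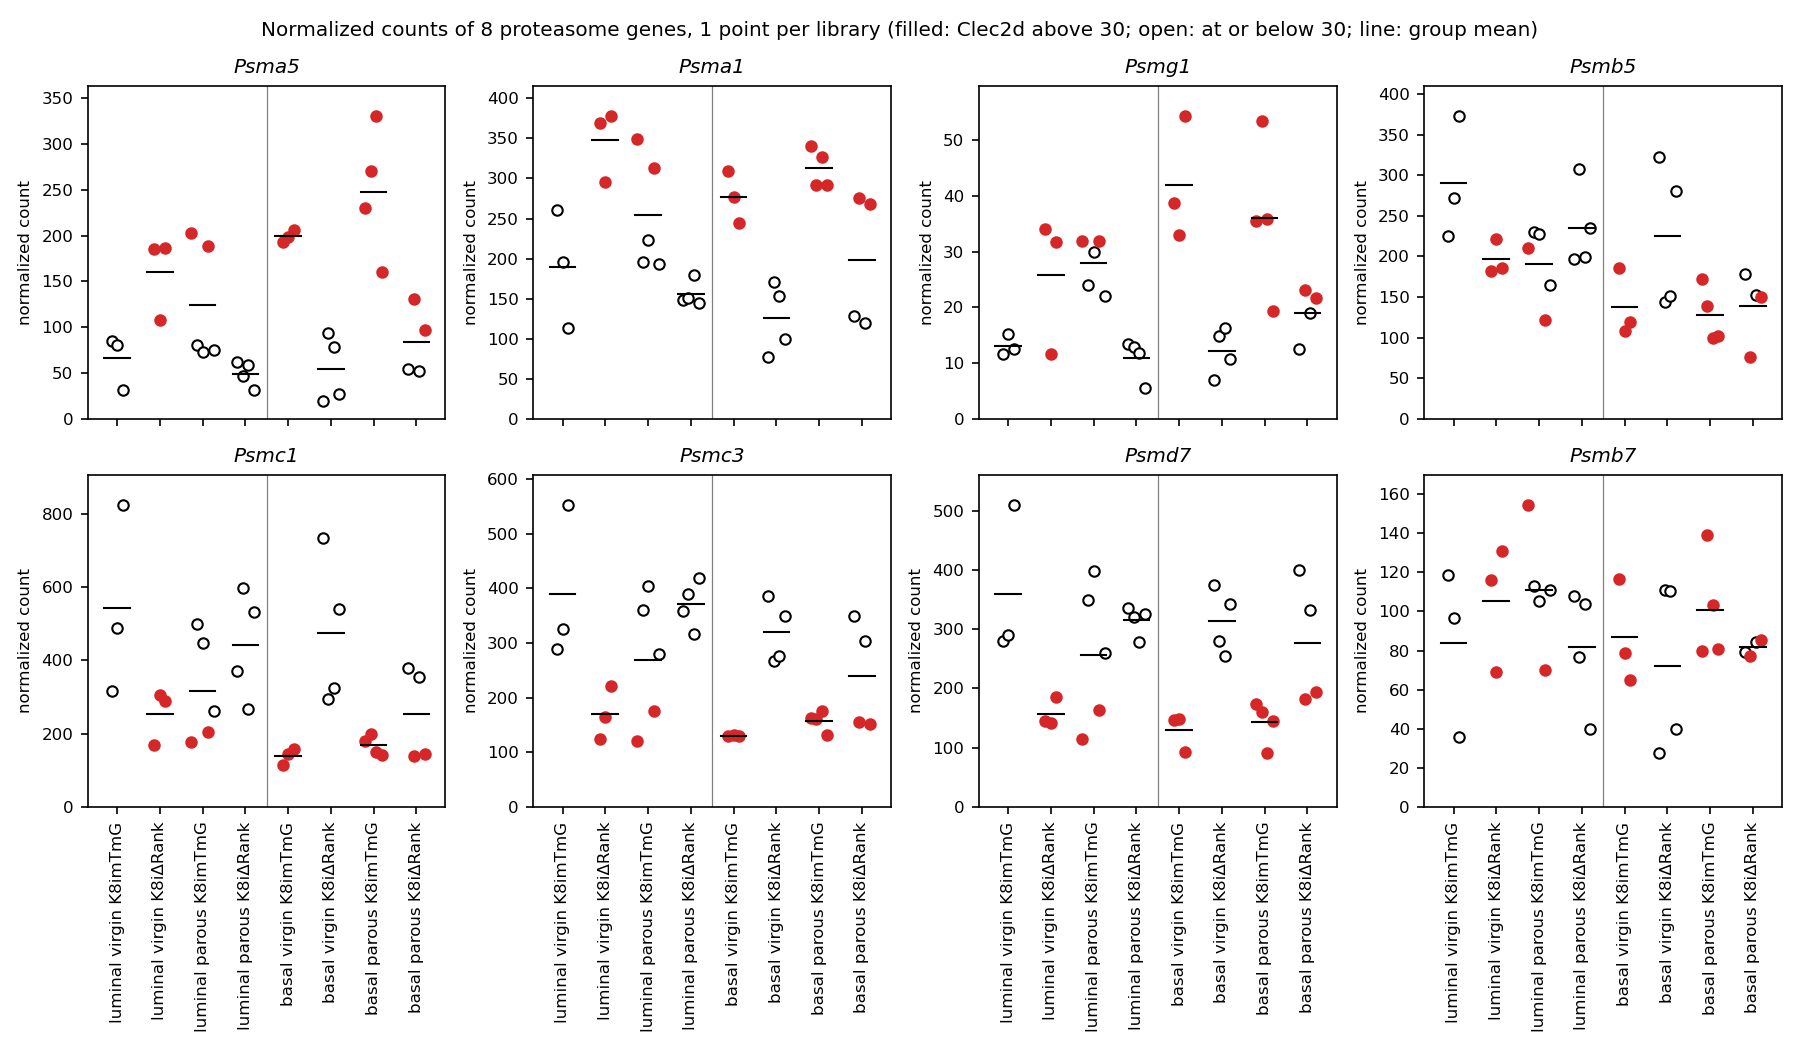
Normalized counts of 8 proteasome genes (vertical axes, starting at 0) in the 8 groups of lineage, stage and genotype (horizontal axis), 1 point per library and a line at each group mean. Filled points are Clec2d-high and open points Clec2d-low libraries. Psma5 reaches 330 in basal parous K8imTmG and 19.6 in basal virgin K8iΔRank libraries, and filled and open points do not mix for Psma5, Psmc3 and Psmd7.

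More proteasome genes were higher in luminal than in basal cells than the reverse. With all 30 libraries in 1 fit and the 4 conditions weighted equally, 19 genes were higher and 4 lower in luminal cells at a limma adjusted p below 0.05, that is 54.8% of the 42. Of all 11133 genes tested, 55.7% passed, 28.7% higher and 27.0% lower. The share of the list that passed was thus that of all genes, whereas 45.2% of the list was higher in luminal cells. The median log2 difference was 0.33 over the list and 0.04 over all genes, and 34 of 42 differences lay above 0, against 52.2% of all genes. By condition, 25 to 31 of the 42 lay above 0. With the Clec2d side as a term in the fit the list median was 0.25 (0.03 over all genes). Within 1 side it was 0.19 in Clec2d-low parous K8iΔRank libraries (0.02 over all genes). In Clec2d-high parous K8imTmG libraries it was -0.03 (-0.01 over all genes), so the shift of the list was not seen there. Differences in RNA content per cell between lineages were not measured. A lower level from fewer cells of one type in a sort and less RNA per cell cannot be told apart in such bulk libraries.

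By role, luminal cells were higher for 4 of 6 ATPases, 6 of 11 non-ATPase subunits, 3 of 7 alpha and 2 of 7 beta subunits, 2 of 3 base chaperones, and both activators Psme3 and Psme4. Averaged over the 4 conditions, basal cells were higher for Psmd6, Psme3ip1 and 2 of 4 chaperones of 20S assembly, Psmg1 and Psmg4. In virgin K8iΔRank mice (luminal Clec2d-high, basal Clec2d-low) these genes were higher in luminal cells, by 0.22, 0.66, 0.94 and 0.43 on the log2 scale. Psma4, Psma6, Psmb5, Psmc1, Psmc3, Psmc5 and Psmd9, called higher in luminal cells, were lower there, from -0.93 (Psmc3) to -0.11 (Psmb5). Of the 42 genes 11 were higher in luminal cells in each condition, and 0 were lower in each. The gene with the lowest p was Psmd10, the base chaperone also known as gankyrin (chromosome X, 139847687 to 139857477). It had a lowest, median and highest normalized count of 89.5, 114 and 163 in 15 luminal libraries and of 43.5, 67.0 and 111 in 15 basal libraries. Of the basal libraries 13 lay below every luminal one. The log2 difference was 0.91 (standard error 0.11, limma adjusted p = 5.32e-08).

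Psmd3, a scaffold subunit of the lid, was at 282, 354 and 493 in luminal and 142, 225 and 290 in basal libraries, and 14 of the 15 basal libraries lay below every luminal one (log2 difference 0.77, standard error 0.11, limma adjusted p = 4.03e-07). Psmd8, another lid subunit, was at 203, 270 and 386 in luminal and 90.02, 188 and 244 in basal libraries (log2 difference 0.68, standard error 0.12, limma adjusted p = 2.03e-05). Psmd3, Psmd8 and the activator Psme4 were higher in the luminal library in 13 of 13 mice with both lineages, and Psmd10 in 12 of 13. In the other direction Psmg4, a chaperone of alpha ring assembly, was at 25.6, 48.2 and 78.8 in luminal and 35.4, 79.7 and 139 in basal libraries. The ranges overlapped, and the log2 difference was -0.58 (standard error 0.13, limma adjusted p = 0.000465). Psme3ip1, at 26.5, 44.9 and 85.7 in luminal and 25.8, 58.2 and 103 in basal libraries, differed by -0.34 (standard error 0.13, limma adjusted p = 0.0316). Psmd6, a lid subunit, was at 55.2, 80.0 and 138 in luminal and 60.01, 103 and 158 in basal libraries (log2 difference -0.28, standard error 0.12, limma adjusted p = 0.0420). Both sets of ranges overlapped nearly throughout.

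**Figure D4:**
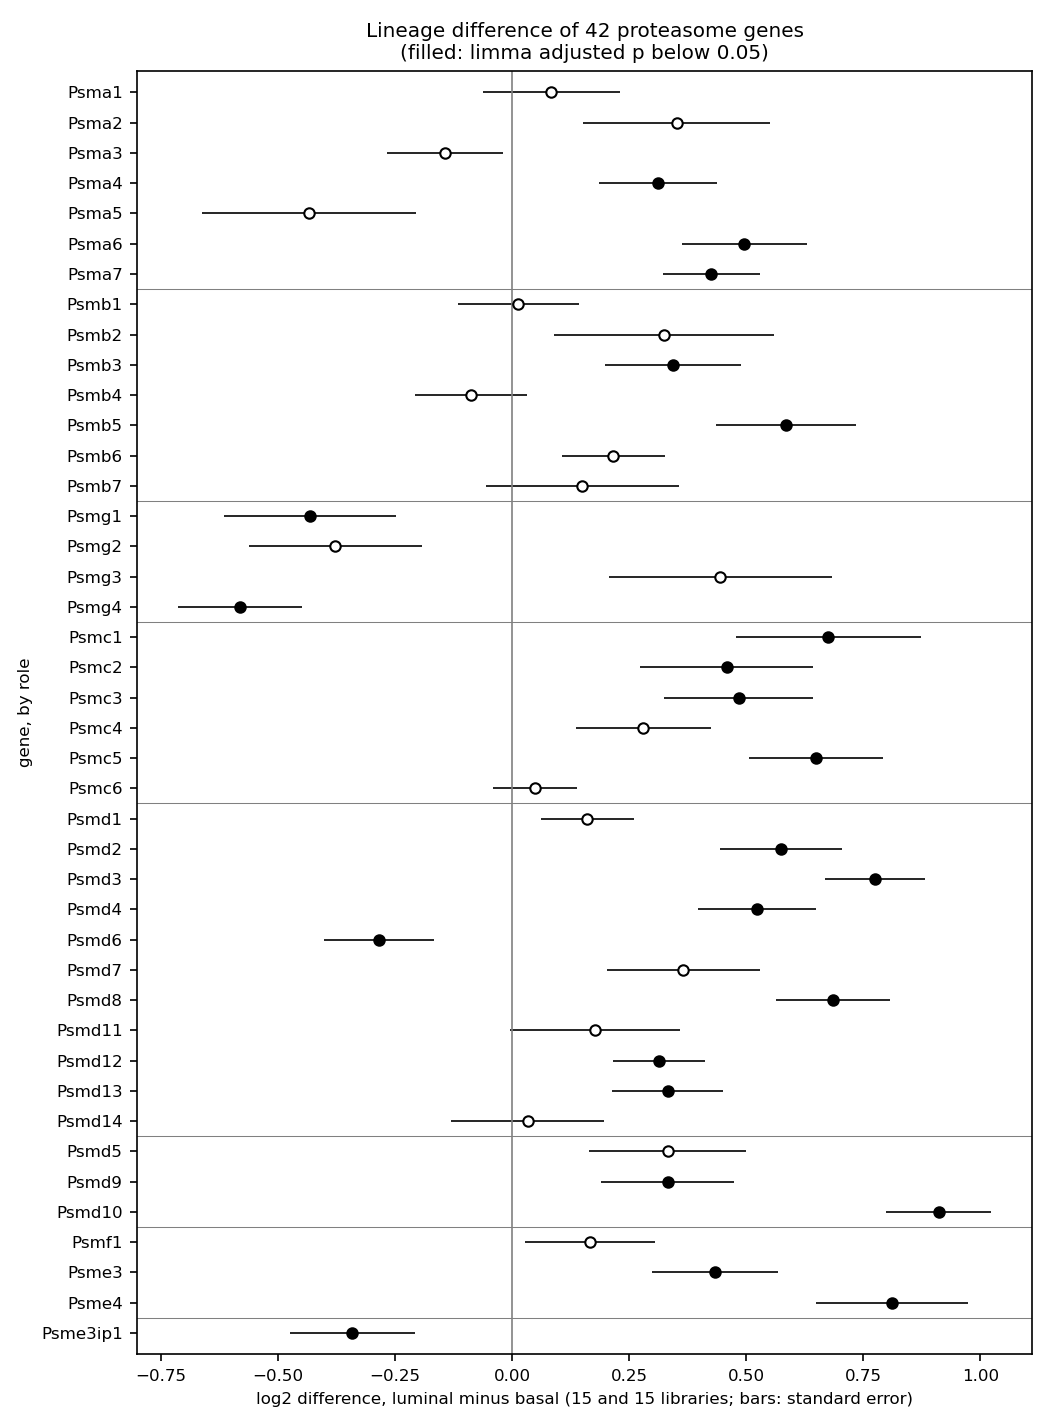
Log2 difference between luminal and basal cells (horizontal axis, luminal minus basal, 15 and 15 libraries) for the 42 genes (vertical axis, by role). Bars are standard errors, and filled points passed the test. Psmd10 lies farthest to the right at 0.91 and Psmg4 farthest to the left at -0.58, and all 6 ATPases lie above 0.

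The lineage calls depended in part on the Clec2d split, because 10 of the 13 mice with both lineages had them on opposite sides. With the side as a term in the fit, 16 genes were higher and 1, Psmg4, lower in luminal cells, and 51.8% of all genes passed, 26.4% higher and 25.5% lower. Of the 23 genes called without the term 14 were among these 17. The calls of Psmc1, Psmc2, Psmc3, Psma4, Psmd6, Psmd9, Psmd13, Psme3ip1 and Psmg1 were lost, and those of Psma1, Psma2 and Psmd5 were gained. Within the 4 luminal and 2 basal Clec2d-low parous K8iΔRank libraries 5 genes were higher in luminal cells (Psma2, Psmb3, Psmd3, Psmd8 and Psmd10), where 30.7% of all genes passed. Within the 2 luminal and 4 basal Clec2d-high parous K8imTmG libraries Psmd8 was higher and Psmg4 lower, where 21.8% of all genes passed. Psmd8 was the gene called in both, at log2 differences of 0.73 and 0.77 (limma adjusted p = 0.0174 and 0.0138).

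Genes outside the list but of the same pathway were counted in the lineage comparison as well. Of 35 such genes 16 were higher and 3 lower in luminal cells, with a median log2 difference of 0.28. Of all 11133 genes tested 28.7% were higher and 27.0% lower, with a median of 0.04. The 35 genes were not counted with the Clec2d side as a term in the fit. Ddi2, the protease that activates Nfe2l1, differed by 1.53 (standard error 0.10, limma adjusted p = 3.86e-14), with group means of 342 to 546 normalized counts in luminal and 123 to 165 in basal cells. The inducible catalytic subunit Psmb8, which replaces Psmb5 in immunoproteasomes, differed by 1.92 (standard error 0.21, limma adjusted p = 8.11e-09), with group means of 123 to 165 and 34.5 to 57.7. Ubqln2 and Nsfl1c, a shuttle factor and a cofactor of the Vcp unfoldase, differed by -0.59 and -0.44, lower in luminal cells (limma adjusted p = 0.000282 and 0.00305).

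Genotype was compared next, to ask how loss of luminal Rank bears on the proteasome genes. In virgin luminal cells 0 of 42 genes passed, where 0.984% of 10066 genes passed. At an unadjusted p below 0.05 there were 10 of the 42 (23.8%, against 22.1% of all genes). edgeR called 0 of the 42 and 1.37% of all genes, and DESeq2 3 of the 42 and 6.44% of all genes. Over the list the median log2 difference was -0.08 and -0.03 over all genes. The lowest p was that of Psmd7, at 280, 290 and 510 normalized counts in the 3 K8imTmG and 145, 142 and 185 in the 3 K8iΔRank libraries. The groups did not overlap, and the log2 difference was -1.14 (standard error 0.29, limma adjusted p = 0.0712). All libraries of the first group were Clec2d-low and all of the second Clec2d-high. Of the 35 other pathway genes Rps27a, which encodes ubiquitin fused to a ribosomal protein, was higher, with a log2 difference of 1.85, and Psme1, a subunit of the activator PA28, lower, with -1.54 (limma adjusted p = 0.0349 and 0.0253).

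In parous luminal cells 0 of 42 genes passed, where 0.0991% of 10090 genes passed. At an unadjusted p below 0.05 there were 13 of the 42 (31.0%, against 19.9% of all genes). edgeR called 0 of the 42 and 0.198% of all genes, and DESeq2 5 of the 42, all lower in K8iΔRank, and 6.06% of all genes. The median log2 difference was -0.19 over the list and 0.04 over all genes. The lowest p was that of Psmg1, a chaperone that starts alpha ring assembly. It was at 31.9, 24.0, 30.004, 31.9 and 22.1 in the 5 K8imTmG and 13.3, 12.8, 11.7 and 5.46 in the 4 K8iΔRank libraries, without overlap (log2 difference -1.35, standard error 0.29, limma adjusted p = 0.0922). All 4 assembly chaperones had differences below 0, from -1.35 to -0.51, without passing the test. Within the Clec2d-low libraries, where 0.416% of 10101 genes passed, 0 of 42 passed, and none of the 35 other pathway genes passed in the full comparison.

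In virgin basal cells, which keep Rank in both genotypes, 4 genes were higher and 6 lower in K8iΔRank than in K8imTmG. Of 10616 genes tested 8.99% passed, 4.27% higher and 4.72% lower, whereas 23.8% of the 42 passed. The 4 K8iΔRank libraries were Clec2d-low and the 3 K8imTmG libraries Clec2d-high. The median log2 difference was -0.12 over the list and 0.06 over all genes. Among the ATPases 3 of 6 rose (Psmc1, Psmc3 and Psmc5), among the alpha subunits 3 of 7 fell (Psma1, Psma3 and Psma5), and the beta ring had no called gene.

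Psmc3 was at 129, 132 and 130 in the 3 K8imTmG and at 387, 268, 276 and 349 in the 4 K8iΔRank libraries (log2 difference 1.27, standard error 0.21, limma adjusted p = 0.00914). Psmd7 was at 147, 149 and 92.4 and at 374, 281, 255 and 343 (log2 difference 1.29, standard error 0.24, limma adjusted p = 0.0163). Psmc1 was at 115, 145 and 158 and at 735, 295, 326 and 539 (log2 difference 1.67, standard error 0.32, limma adjusted p = 0.0165). For these 3 genes every K8iΔRank library lay above every K8imTmG library, and those of mice 820k and 825k were the highest. Psma3, an alpha subunit, was at 484, 475 and 511 in K8imTmG and 207, 304, 268 and 256 in K8iΔRank libraries (log2 difference -0.93, standard error 0.20, limma adjusted p = 0.0221). Psmg1 was at 38.8, 33.1 and 54.3 and at 6.92, 14.9, 16.3 and 10.7 (log2 difference -1.74, standard error 0.40, limma adjusted p = 0.0299). Psma5 was at 192, 198 and 206 and at 19.6, 93.6, 78.6 and 26.8 (log2 difference -2.13, standard error 0.50, limma adjusted p = 0.0310). Again the groups did not overlap, and the libraries of mice 820k and 825k were the farthest from the controls for Psma5 and Psmg1. The other 4 called genes were Psma1, Psmg4 and Psme3ip1, which fell, and Psmc5, which rose. Without mouse 825k 1 gene of the 42 and 2.67% of all genes were called. Without mouse 538 or 568, both controls, 2 of the 42 were called, with 3.46% and 3.51% of all genes, and without mouse 531 5 of the 42, with 6.33%. The calls thus became fewer over the whole table and not in the list alone. The 4 endothelial markers summed to 136 to 315 normalized counts in the K8imTmG and 179 to 683 in the K8iΔRank libraries, with overlap, and the part of other cells was not tested. Of the other pathway genes Uba6, an enzyme that activates ubiquitin, rose by 1.25 and Rps27a fell by 2.92 on the log2 scale (limma adjusted p = 0.0211 and 0.00853).

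In parous basal cells 0 genes were higher and 2 lower in K8iΔRank. Of 10592 genes tested 0.906% passed, 0.312% higher and 0.595% lower, against 4.76% of the 42. Over the list the median log2 difference was -0.22 and 0.06 over all genes. Of the 42 differences 27 lay below and 15 above 0, where 53.8% of all genes lay above 0. Psma5 was at 230, 270, 330 and 160 in K8imTmG and at 54.1, 131, 52.4 and 96.7 in K8iΔRank libraries (mice 787k, 794k, 798k and 830k). The groups did not overlap, and the 2 Clec2d-high K8iΔRank libraries lay nearest to the controls (log2 difference -1.62, standard error 0.31, limma adjusted p = 0.0436). Psme3ip1 was at 92.1, 82.9, 99.5 and 80.8 and at 29.6, 58.2, 33.9 and 41.9 (log2 difference -1.14, standard error 0.24, limma adjusted p = 0.0495). With the Clec2d-high libraries alone, 4 K8imTmG and 2 K8iΔRank, 0 of 42 genes passed, as did 0% of 10416 genes, and Psma5 and Psme3ip1 had limma adjusted p-values of 0.313 and 0.342. Both calls were also lost when mouse 532, 534, 557, 787k, 798k or 830k was left out, where at most 0.0285% of all genes passed. Of the 8 fits with 1 mouse left out, Psma5 passed in 2 and Psme3ip1 in 1. Without mouse 794k 10 genes of the 42 and 9.97% of all genes were called. The 5 luminal markers summed to 522 to 732 normalized counts in the K8imTmG and 828 to 964 in the K8iΔRank libraries, and the 5 basal markers to 8167 to 9203 and 6070 to 7098, both without overlap. Of the basal markers Krt5, Krt14 and Acta2 had lower means in K8iΔRank libraries, whereas Myh11 went the other way, with means of 559 in K8imTmG and 779 in K8iΔRank. Trp63 differed little, at means of 196 and 185. The part of these markers in the result was not tested. Rps27a and Nsfl1c fell by 1.95 and 0.94 on the log2 scale (both limma adjusted p = 0.0495).

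Parity was compared within each lineage and genotype. In K8imTmG luminal cells 0 of 42 genes passed, where 2.20% of 10279 genes passed. At an unadjusted p below 0.05 there were 5 of the 42 (11.9%, against 21.7% of all genes). edgeR called 0 of the 42 and 2.69% of all genes, and DESeq2 1 of the 42 and 10.3% of all genes. The median was -0.07 over the list and -0.01 over all genes. The lowest p was again that of Psmg1, at 11.5, 15.2 and 12.5 in the 3 virgin and 31.9, 24.0, 30.004, 31.9 and 22.1 in the 5 parous libraries, without overlap (log2 difference 1.03, standard error 0.27, limma adjusted p = 0.0764). With the 3 virgin and 3 parous Clec2d-low libraries alone 0 of 42 passed, where 12.8% of 10014 genes did. The 5 luminal markers summed to 6713 to 9872 normalized counts in the virgin and 3320 to 6067 in the parous libraries, without overlap. The part of these markers was not tested. None of the 35 other pathway genes passed.

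In K8iΔRank luminal cells 5 genes were higher and 5 lower in parous than in virgin mice. Of 10249 genes tested 16.0% passed, 8.25% higher and 7.78% lower, against 23.8% of the 42. The 3 virgin libraries were Clec2d-high and the 4 parous ones Clec2d-low. Over the list the median log2 difference was -0.18 and 0.03 over all genes. Higher were Psmd7, Psmc3, Psmc4, Psma4 and the base chaperone Psmd9. Lower were Psma1, Psma2, Psma5, Psmb1 and the base chaperone Psmd5.

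Psma1 was at 370, 296 and 378 in the 3 virgin (mice 821k, 822k and 825k) and 148, 150, 179 and 144 in the 4 parous libraries (787k, 794k, 798k and 830k), differing by -1.16 on the log2 scale (standard error 0.18, limma adjusted p = 0.00392). Psma5 was at 186, 108 and 186 and at 61.3, 46.2, 58.5 and 30.8, differing by -1.68 (standard error 0.29, limma adjusted p = 0.00539). Psmd5 was at 85.8, 65.4 and 95.1 and at 40.3, 27.02, 36.8 and 19.9, differing by -1.41 (standard error 0.28, limma adjusted p = 0.00958). All 4 parous libraries lay below all 3 virgin ones for these genes, and the parous library of mouse 830k was the lowest. In the other direction Psmd7 was at 145, 142 and 185 in the virgin and 336, 320, 279 and 326 in the parous libraries, differing by 1.00 (standard error 0.18, limma adjusted p = 0.00639). Psmc3 was at 124, 165 and 222 and at 359, 390, 315 and 419, differing by 1.15 (standard error 0.22, limma adjusted p = 0.00859). Psma4 was at 269, 302 and 295 and at 438, 512, 396 and 519, differing by 0.68 (standard error 0.18, limma adjusted p = 0.0260). Here all parous libraries lay above all virgin ones. Without mouse 787k, 794k or 830k 6 of the 42 were called, with 9.76%, 8.80% and 7.16% of all genes, and without mouse 822k 12 of the 42, with 15.4%. Markers of other cells moved with the comparison. The 4 fibroblast markers summed to 665 to 842 normalized counts in the virgin and 161 to 387 in the parous libraries, most of it Dcn, at 571 to 802 and 121 to 325. The 5 basal markers summed to 51.9 to 183 and 23.1 to 38.5. Neither list overlapped between the groups, and their part in the result was not tested. Psme1 and Uba6 rose by 0.89 and 0.85 and Rps27a fell by 1.77 on the log2 scale (limma adjusted p = 0.0205, 0.0284 and 0.00189).

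Of the 10 genes called in this comparison and the 10 called between genotypes in virgin basal cells, 4 were shared, 40% of each, and all 4 had the same direction (Psma1, Psma5, Psmc3 and Psmd7). Of all genes called in the 2 comparisons 510 were shared, 31.0% of the first and 53.5% of the second, and all 510 had the same direction, so that the list did not stand apart from the table in this. The libraries of the 2 comparisons are different ones, but some come from the same mice, and in both the second group is the Clec2d-high one.

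**Figure D5:**
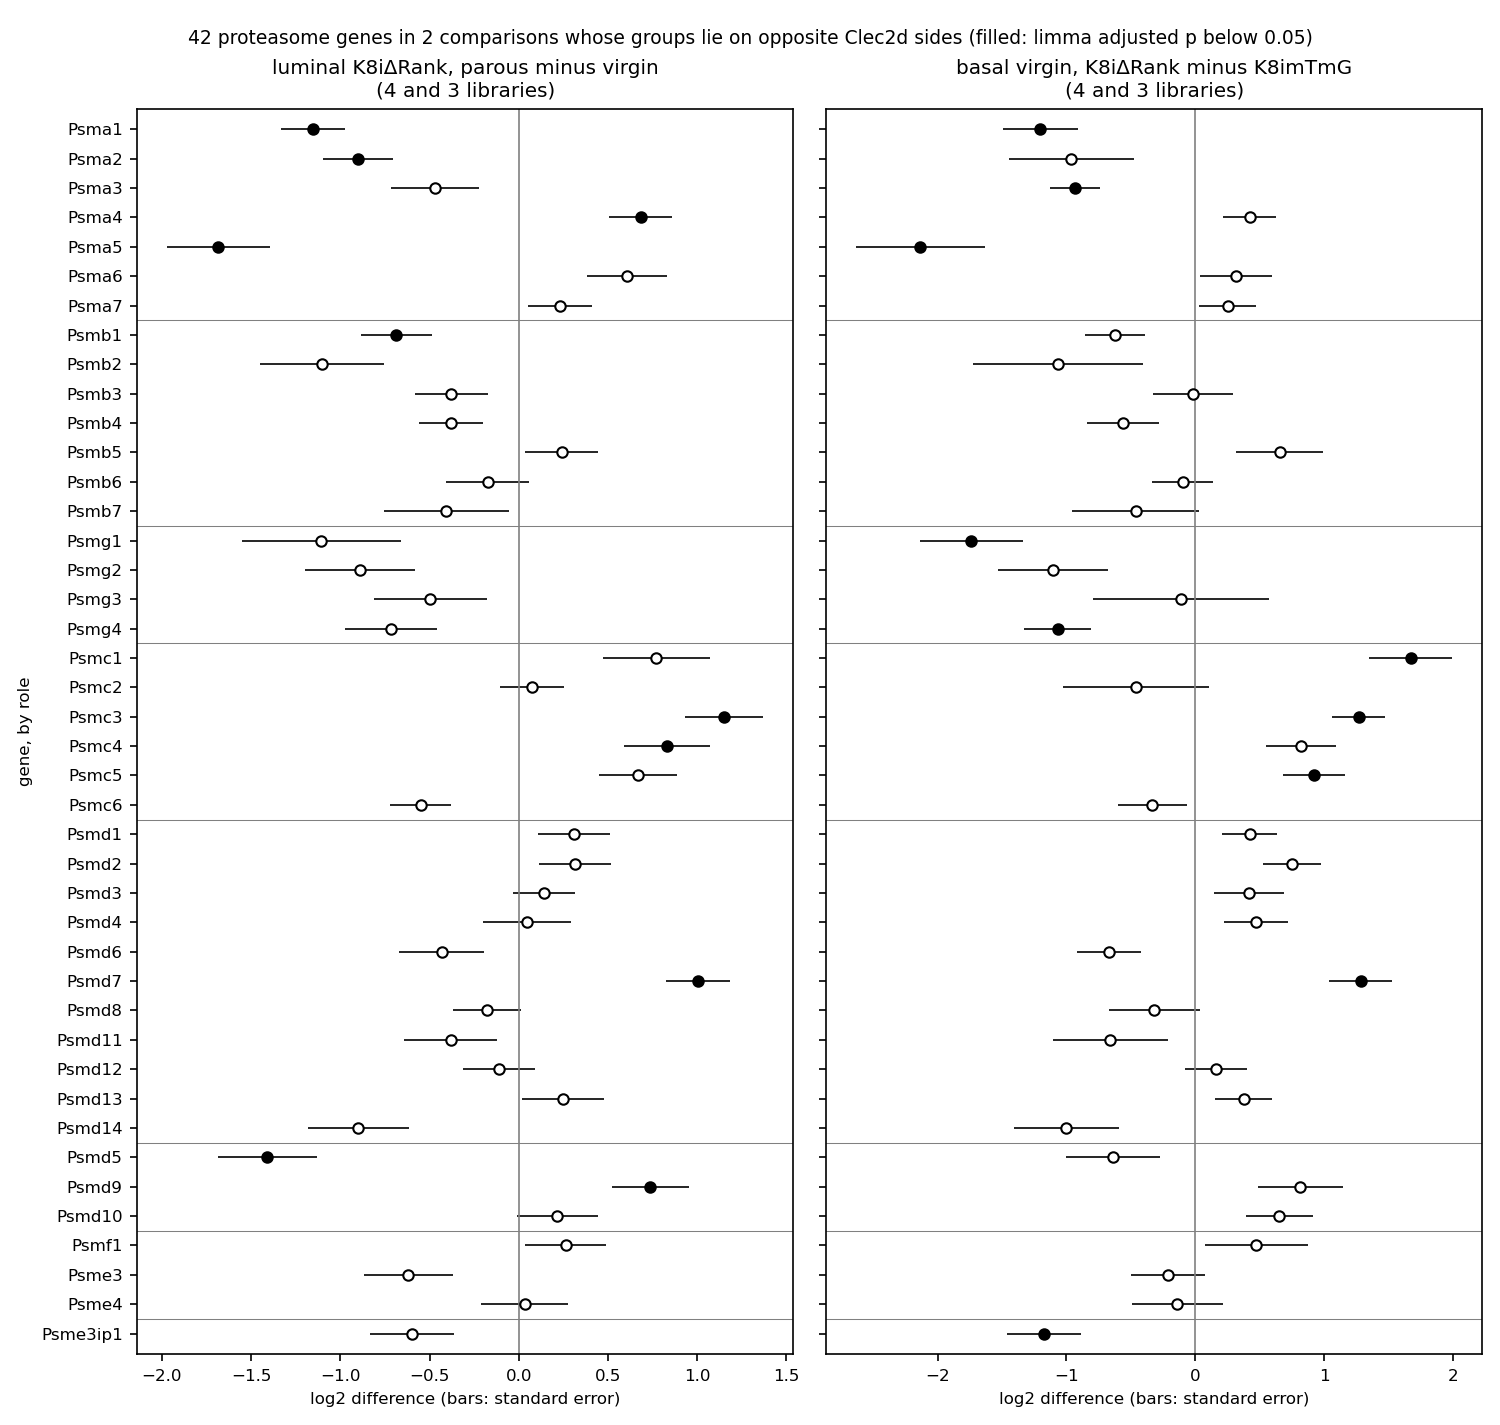
Log2 differences of the 42 genes (vertical axis, by role) between parous and virgin K8iΔRank luminal cells (left) and between K8iΔRank and K8imTmG virgin basal cells (right), each with 4 against 3 libraries. Bars are standard errors, and filled points passed the test. Psma1, Psma5, Psmc3 and Psmd7 are filled in both panels, Psma5 lies farthest to the left at -1.68 and -2.13, and the ATPases lie mostly to the right.

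In basal cells no gene of the list passed the test for parity. In K8imTmG mice 0 of 42 and 0% of 10538 genes passed, 2 of the 42 (4.76%, against 9.20% of all genes) had an unadjusted p below 0.05, and edgeR and DESeq2 called 0 of the 42. All 7 libraries were Clec2d-high. The median log2 difference was 0.20 over the list and 0.00 over all genes, and 33 of 42 differences lay above 0, against 50.2% of all genes. The lowest p was that of Psmb3, a non-catalytic beta subunit, at 97.7, 66.1 and 92.4 in the 3 virgin and 178, 246, 211 and 125 in the 4 parous libraries. The groups did not overlap (log2 difference 1.12, standard error 0.26, limma adjusted p = 0.229). In K8iΔRank mice 0 of 42 and 0% of 10525 genes passed, and 0% of 10283 genes in the Clec2d-low libraries alone. In the full comparison 1 of the 42 (2.38%, against 9.84% of all genes) had an unadjusted p below 0.05, and edgeR and DESeq2 called 0 of the 42. That gene was Psmc1, at 735, 295, 326 and 539 in the 4 virgin and 380, 139, 356 and 144 in the 4 parous libraries, where the 2 lowest were the Clec2d-high ones (log2 difference -0.95, standard error 0.41, limma adjusted p = 0.497). None of the 35 other pathway genes passed in either comparison.

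Whether the genotype difference itself differed between stages was tested in each lineage. In luminal cells the difference of differences, parous minus virgin, passed for 10 of 42 genes, 4 above and 6 below 0 (23.8%). Of 10262 genes tested 12.9% passed, 7.17% above and 5.75% below 0. The median was -0.12 over the list and 0.08 over all genes. Psma1 had a genotype difference of 0.94 in virgin and -0.67 in parous cells, a change of -1.61 (standard error 0.38, limma adjusted p = 0.0177). Psma5 changed by -2.56 (standard error 0.60, limma adjusted p = 0.0177) and Psmg1 by -2.14 (standard error 0.52, limma adjusted p = 0.0202). In the other direction Psmc3 changed by 1.76 (standard error 0.50, limma adjusted p = 0.0345), Psma4 by 1.15 (standard error 0.34, limma adjusted p = 0.0400) and Psmd7 by 1.58 (standard error 0.49, limma adjusted p = 0.0449). The virgin K8iΔRank libraries were all Clec2d-high and both the virgin K8imTmG and the parous K8iΔRank libraries all Clec2d-low, so these differences cannot be told apart from the split. Psmg1 followed the sides less closely than the other 5 genes, since the Clec2d-high virgin K8iΔRank library of mouse 822k held 11.5 normalized counts, as low as the virgin K8imTmG libraries. Without mouse 538, a virgin control, 0 of the 42 and 3.29% of all genes were called. The count was 2 without mouse 821k (4.94% of all genes), 3 without mouse 794k or 830k (4.43% and 5.90%) and 5 without mouse 533 or 557 (7.98% and 9.33%). The calls above 0 were the less stable ones. edgeR called 1 above and 7 below 0, and 12.6% of all genes. With limma 0 lay above 0 when mouse 533, 557, 794k, 821k, 822k or 830k was left out, as well as without mouse 538. The fibroblast and basal markers given above for K8iΔRank luminal cells enter here too. Psme1 and the regulator Nfe2l1 changed by 1.82 and 1.04 and Rps27a by -2.93 (limma adjusted p = 0.00765, 0.0339 and 0.0300). In basal cells 0 of 42 and 0% of 10607 genes passed, 7 of the 42 (16.7%, against 10.2% of all genes) had an unadjusted p below 0.05, and edgeR and DESeq2 called 0 of the 42. The lowest p was that of the ATPase Psmc5, at 57.5, 74.4 and 81.5 in virgin K8imTmG, 160, 117, 112 and 155 in virgin K8iΔRank, 117, 90.9, 131 and 63.7 in parous K8imTmG and 144, 52.6, 97.7 and 72.4 in parous K8iΔRank basal libraries. The virgin groups did not overlap and the parous ones did, and the change was -1.11 (standard error 0.43, limma adjusted p = 0.420).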

How the data were processed

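The authors trimmed 3′ QuantSeq reads, removed duplicates by unique molecular identifiers, aligned with Bowtie2 to GRCm39, counted with Gencode vM26 and divided by DESeq2 size factors. The deposited signal values are these normalized counts. They were whole multiples of 1 read in each library (100% of values within 0.02 reads), so reads were recovered, and 0 columns were left unused. All 42 symbols matched 1 Gencode vM39 gene each, and coordinates are from there (GRCm39).

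Groups were compared with limma 3.58.1, with a mean-variance trend, on log2(normalized count + 1). A gene was tested where its value exceeded 10 in 25% or more of the libraries in a comparison, which all 42 genes did. Fold changes on this scale understate those of low genes. P-values were adjusted by Benjamini-Hochberg over all genes tested, with 0.05 as the threshold. Alternatives were a pseudocount of 4, no filter, TMM factors, edgeR 4.0.16 and DESeq2 1.42.0 on recovered reads (R 4.3.3), each mouse left out, the mouse as a block, and Clec2d sides (Clec2d above 30). The tests were tried on simulated data. The 13 mice that gave both lineages pair their libraries, and the correlation of deviations within these pairs was -0.25 to 0.354 (median 0.087, over 0.1 in 6). The members and gene lists were chosen with earlier results of these data known. Genes named with values were the 3 catalytic subunits and, in each comparison, up to 3 per direction with the lowest adjusted p, or the one with the lowest p, and up to 2 pathway genes per direction, of which 1 gene is not reported here. Members that followed the Clec2d split were named after their values were seen. Mice are the replicates. Sequences are from RefSeq (GRCm38.p6). Figures were drawn with matplotlib 3.10.9 in Python 3.11.15.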

Additional observations from a re-analysis of the deposited data

Results flagged for a closer look

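The genotype difference in luminal cells differed between stages in 10 of the 42 genes by the limma test of the difference itself, on the log2 scale. It was -1.61 for Psma1, -2.56 for Psma5, -1.60 for Psmd5, -1.23 for Psme3, -2.14 for Psmg1 and -1.87 for Psmg2. It was 1.15 for Psma4, 1.76 for Psmc3, 1.16 for Psmc5 and 1.58 for Psmd7. In each case the luminal virgin K8iΔRank libraries were all Clec2d-high and the other virgin and parous K8iΔRank libraries all Clec2d-low, so this cannot be told apart from the split.

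Of 100 sets of 4 or 5 libraries examined for the 20 genes named by rule, 3 held 1 library far from the others by Dixon's ratio, where chance gives about 1 in 20. The basal virgin K8iΔRank library of mouse 820k was low for Psmb3, at 48.47 normalized counts against 97.73 to 102.9 in the other 3, and for Psmd3, at 142 against 271 to 289.9. The basal parous K8imTmG library of mouse 557 was high for Psmg4, at 139.4 against 113 to 115.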

How the results depend on the processing

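The counts of genes called kept within 1.5 times of their value in the comparison of parous with virgin K8iΔRank luminal cells, of genotypes in virgin basal cells and of the lineages under a pseudocount of 4, no filter, TMM factors, edgeR, DESeq2 and, for the lineages, the mouse as a block and the Clec2d side as a term. DESeq2 called 3 genes between genotypes in virgin luminal cells (6.44% of all genes) and 5 in parous luminal cells (6.06%). It called 1 with parity in K8imTmG luminal cells (10.3%) and 5 between genotypes in parous basal cells (5.37%). For genotype by stage in luminal cells it called 16 (19.4%). The 2 genes called between genotypes in parous basal cells became 0 without a filter (0.108% of all genes), 1 with edgeR (0.633%) and 0 with Clec2d-high libraries alone (0%). Lineage calls became 5 in Clec2d-low parous K8iΔRank and 2 in Clec2d-high parous K8imTmG libraries, alternatives chosen after seeing the data, and in the former Psme3ip1 reversed to 0.15 (limma adjusted p = 0.71). Leaving out 1 mouse at a time gave 6 to 12 calls for parity in K8iΔRank luminal cells, 1 to 8 and 0 to 10 for genotype in virgin and parous basal cells, 16 to 23 for lineage, 0 to 14 for genotype by stage in luminal cells and 0 in the other comparisons. Among the alternative values for genes named by rule, 437 kept direction and side of the threshold, 93 lost and 3 gained the call and 1 reversed. With the mouse as a replicate block 24 genes differed between lineages, the same 23 and Psmd7, and no other call changed. The basal K8imTmG libraries hold no Clec2d-low one, so a fit on 1 side equals the full one there. Depth limits low genes most in the shallowest libraries, where 1 read was worth up to 5.43 normalized counts. The lowest value of a listed gene, 4.62 for Psmb2 in the basal library of mouse 820k, stood for 4 reads.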
